A study of Mus musculus with 5 samples.

Results

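Dennd4a, Nr4a1, Nr4a2, Nr4a3, Tnfaip3 and Hif1a are 6 mouse genes tied to dysfunction of CD8 T cells, the state in which a chronically stimulated T cell loses function. The study names Dennd4a, Nr4a3, Tnfaip3 and Hif1a for this state, and Nr4a1 and Nr4a2 are the remaining members of the NR4A family. They are 6 of the 34031 gene identifiers counted in the series, and all 6 were found in each of the 5 reactions. The study picked 4 of the 6 on the MC38 samples described here, so a direction of those 4 in MC38 T cells is not independent evidence.

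The mice were C57BL/6J males aged 8 to 10 weeks. Each carried 1 of 2 transplanted tumor lines, TRAMP-C2 (prostate cancer) or MC38 (colon adenocarcinoma), and received an isotype antibody or the checkpoint inhibitor pair anti-CTLA4 and anti-PD-1 (CPI) on days 3, 6 and 9. Vehicle or 20 mg/kg ABT-317, an inhibitor of the kinase JAK1, followed on day 12, and tissue was taken on day 15. The sequencing methods of the study count these days from implantation for both lines. Its MC38 figure instead counts them from the time when tumors reached a set size. The 4 groups were isotype, CPI, isotype + ABT-317 and CPI + ABT-317. Single-cell RNA was counted in 3 reactions of tumor-draining lymph nodes (TDLN), which were whole nodes of mice with TRAMP-C2 tumors. It was also counted in 2 reactions of MC38 tumors, for which CD45+ and CD45- cells had been sorted and joined in equal numbers. Each MC38 reaction mixed all 4 groups, marked by antibody hashtags. The TDLN hashtags held no counts, so the groups within those reactions could not be read. Hashtags were used in the study to mark samples and treatments, and the deposited key gives each hashtag a treatment and ties none to a mouse, so the reaction was the replicate. The p-values measure only the spread between these reactions, which may be technical.

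NR4A proteins are orphan nuclear receptors encoded by immediate early genes, which respond within minutes to signals such as calcium, cAMP and antigen receptor engagement, and in T cells they restrain effector function. Tnfaip3 encodes A20, a ubiquitin-editing enzyme that NF-kB induces and that shuts NF-kB signaling down. Hif1a encodes the oxygen-regulated subunit of the transcription factor HIF-1, whose protein level is set largely by hydroxylation and decay, so that its mRNA is no measure of its activity. Dennd4a encodes a DENN domain protein that activates RAB10, a small GTPase of membrane traffic.

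In GENCODE annotation of GRCm38, Dennd4a spans 108328 bases of chromosome 9 (64811340 to 64919667, plus strand) and is the longest of the 6 genes. Nr4a1 lies on chromosome 15 (101254269 to 101274795, plus), Nr4a2 on chromosome 2 (57106830 to 57124003, minus) and Nr4a3 on chromosome 4 (48045153 to 48086447, plus). Tnfaip3 lies on chromosome 10 (19000910 to 19015657, minus) and is the shortest at 14748 bases. Hif1a lies on chromosome 12 (73901375 to 73947530, plus).

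The promoters of the NR4A genes and of Tnfaip3 are shown because each holds repeated copies of a motif for a regulator of its family. RefSeq promoter sequences on GRCm38 were available for all 6 genes, and the 250 bases upstream of each start were searched on both strands. Capitals in the first 3 sequences mark TGACG (or its reverse complement), the short form of the cAMP response element (CRE), which proteins of the CREB family bind. Capitals in the last pair mark the NF-kB consensus. The Nr4a1 stretch lies inside the GENCODE gene but outside its exons, and the Nr4a3 stretch stops where the annotated exon begins. Both Tnfaip3 sites also lie inside the GENCODE gene. Only 3 of the 250 bases searched in Tnfaip3 come before an annotated exon, and 110 are exonic.
Nr4a1, chr15:101266596-101266845, plus strand: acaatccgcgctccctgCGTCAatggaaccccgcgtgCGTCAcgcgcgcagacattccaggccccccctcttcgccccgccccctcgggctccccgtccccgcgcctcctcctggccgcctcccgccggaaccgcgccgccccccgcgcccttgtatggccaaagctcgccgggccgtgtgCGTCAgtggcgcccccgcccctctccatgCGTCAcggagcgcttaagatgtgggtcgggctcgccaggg
Nr4a2, chr2:57124004-57124253, minus strand: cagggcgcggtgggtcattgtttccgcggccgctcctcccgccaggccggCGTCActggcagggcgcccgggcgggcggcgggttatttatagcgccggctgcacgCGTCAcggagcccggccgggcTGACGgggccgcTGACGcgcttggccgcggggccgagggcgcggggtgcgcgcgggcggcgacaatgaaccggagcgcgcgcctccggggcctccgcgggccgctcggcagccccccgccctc
Nr4a3, chr4:48045055-48045152, plus strand: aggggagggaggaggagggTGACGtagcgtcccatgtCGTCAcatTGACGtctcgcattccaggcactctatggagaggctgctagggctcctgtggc
Tnfaip3, first site, chr10:19015516-19015545, minus strand: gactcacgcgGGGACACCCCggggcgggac
Tnfaip3, second site, chr10:19015411-19015440, minus strand: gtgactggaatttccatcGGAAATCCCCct

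Within the 250 bases, the short CRE TGACG matched 4 times in each of Nr4a1, Nr4a2 and Nr4a3, of which 3 fall in the printed Nr4a3 stretch. Of 27025 mouse promoters searched the same way, 17.9% held at least 1 match and 41 (0.152%) held 4 or more. Tnfaip3 held 1 match, and Dennd4a and Hif1a held 0. The NF-kB consensus matched 2 times in Tnfaip3 and 0 times in the other 5 genes, against 7.01% of all promoters with at least 1 match and 0.995% with 2 or more. ACGTG, the core of the element that HIF binds, matched 3 times in Hif1a and in Tnfaip3 and 1 time in Nr4a3. Of all promoters 16.6% held it and 1.28% held 3 or more, where the palindrome CACGTG counts once per strand. TGANTCA, the AP-1 site, matched 1 time in Tnfaip3 and in no other member (6.87% of promoters). A second RefSeq start of Tnfaip3 held a single ACGTG and no other of these motifs. A match describes letters in a window and shows no binding.

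The 5 reactions held 7050 to 62575 barcodes and 18055617 to 435031691 gene UMIs (unique molecular identifiers, each the count of 1 captured mRNA molecule). The third TDLN reaction was the smallest, and its T and B cell sums fell under the minimum of 20 barcodes in every class but the pooled T cells. Pairs of reactions shared 3.84% to 8.70% of the barcodes of the smaller one. Classes were set by panels of marker genes that include none of the 6 members, and a sum of UMIs was taken per class and reaction. In TDLN the hashtag counts were 0, so treatments were pooled there, and 52019 of 62571, 41260 of 56509 and 5379 of 7050 barcodes carried both T and B markers and stayed out of the tests. Another 9844, 13763 and 1638 TDLN barcodes were unassigned. The TDLN class tests thus rest on a small part of the barcodes, 358 and 504 B cells and 350 and 982 T cells in reactions 1 and 2. In MC38 tumors 14849 and 7033 barcodes carried several hashtags and were left out.

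Levels are given in CPM, the UMIs of a gene divided by all gene UMIs of its class, scaled so that each class has the same total, as reaction 1 and then reaction 2. Intervals are exact 95% Poisson intervals and cover counting error only. In MC38 tumors the T cell and macrophage labels were checked against markers that their gates did not use. The T cell check genes summed to 1438 and 1866 CPM in MC38 CD8 T cells and to 2.97 and 3.09 CPM in macrophages. The macrophage check genes summed to 14239 and 16265 CPM in macrophages, and served in the gates of other myeloid classes. In TDLN the gates used the T and B cell check genes as well. The B cell check genes, at 5512 and 5127 CPM in TDLN B cells and 8.53 and 12.7 CPM in TDLN CD8 T cells, are therefore no check there. RNA of other cells was present in the small classes: the 3 C1q genes, made by macrophages, summed to 548 and 361 CPM in MC38 CD8 T cells.

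Among the 11 MC38 classes with at least 20 barcodes in both reactions, all 6 genes had their highest mean level in a class of T cells, while the smaller neutrophil class had a higher mean of Tnfaip3. Dennd4a reached 1524 and 1931 CPM in CD8 T cells (intervals 1334 to 1734 and 1736 to 2141; 231 and 358 UMIs in 110 and 136 barcodes). The level was 866 and 1128 CPM in CD4 T cells, 987 and 1352 CPM in the remaining T cells (other T), 742 and 514 CPM in dendritic cells and 326 and 288 CPM in macrophages. Other T cells had neither CD8 nor CD4 mRNA, or had both. T cell barcodes without CD8 mRNA but with at least 2 regulatory T cell markers counted as CD4 T. Panel-negative barcodes, left unnamed, had at least 5000 UMIs and every marker panel under 0.1 of its reference density. They were not free of marker RNA, and their fibroblast panel summed to 1808 and 1796 CPM in the isotype group. Fibroblasts held 56.3 and 33.7 CPM of Dennd4a and the panel-negative barcodes 22.4 and 15.2 CPM. CD8 T cells were above the other 10 of these classes in both reactions, and the highest mean was 92.0 times the lowest. In the order of means, the values of CD8 T cells stood clear of those of other T cells, other T and CD4 T cells overlapped, and dendritic cells and macrophages each stood clear of the next class. From Arg1 myeloid cells (a myeloid class with Arg1, Spp1 and Hmox1) down to mural cells, which wrap small vessels, each class overlapped its neighbor.

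**Figure D1:**
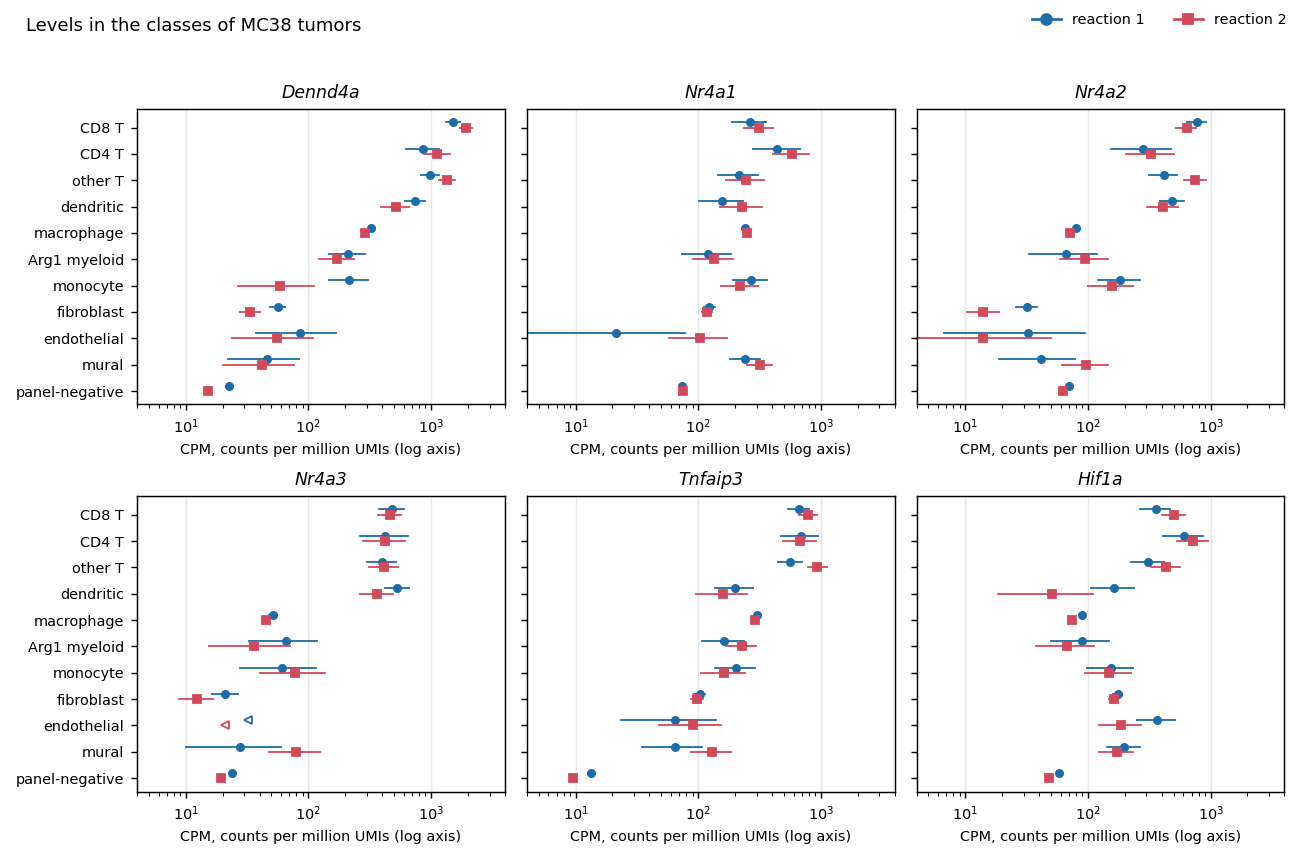
Levels of the 6 genes in 11 classes of MC38 tumors, in CPM on a log axis, for reaction 1 (circles) and reaction 2 (squares), with lines for exact 95% Poisson intervals, and open triangles at the level of 3 counts where 0 UMIs were found. Dennd4a ran from 1524 and 1931 CPM in CD8 T cells to 22.4 and 15.2 CPM in panel-negative barcodes, whereas Nr4a1 changed far less across classes.

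Among the NR4A genes, Nr4a2 and Nr4a3 were high in T cells and dendritic cells and lower in the remaining tested classes. Nr4a2 stood at 772 and 636 CPM in CD8 T cells, 415 and 749 CPM in other T cells, 487 and 413 CPM in dendritic cells and 282 and 329 CPM in CD4 T cells. These were followed by monocytes at 182 and 156 CPM, and the other 6 classes lay at 96.2 CPM or less. Nr4a3 stood at 482 and 464 CPM in CD8 T cells, 530.3 and 362 CPM in dendritic cells, 423 and 423 CPM in CD4 T cells and 401 and 412 CPM in other T cells. None of the other tested classes exceeded 79.5 CPM of Nr4a3, and the few neutrophils held 206 and 73.9 CPM. CD8 T and dendritic cells overlapped in Nr4a3 and did not overlap in Nr4a2, where CD8 T cells were higher. Within the dendritic class the mature regulatory cells (mreg DCs, 32 and 15 barcodes) held 761 and 703 CPM of Nr4a3. Endothelial cells held 0 UMIs of Nr4a3 in both reactions, which allows a level of up to 32.2 and 20.8 CPM.

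Nr4a1 was spread more evenly, with a highest mean 8.15 times the lowest. CD4 T cells had 443 and 579.8 CPM and stood clear of the next class, CD8 T cells at 264 and 313 CPM. Mural cells (243 and 318 CPM), macrophages (239 and 252 CPM), monocytes (269 and 221 CPM), other T cells and dendritic cells followed, each overlapping its neighbor. Panel-negative barcodes held 74.3 and 75.5 CPM.

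Tnfaip3, the A20 gene, was highest in the 3 T cell classes, which overlapped: 565 and 939.5 CPM in other T cells, 659.8 and 793 CPM in CD8 T cells and 685 and 674 CPM in CD4 T cells. Macrophages held 302 and 290.3 CPM, dendritic cells 199.7 and 160.0 CPM and panel-negative barcodes 13.2 and 9.57 CPM. The few neutrophils (29 and 17 barcodes, under the minimum for a test in 1 reaction) held 824 and 1330.5 CPM of Tnfaip3 and 721 and 1478 CPM of Dennd4a, with Tnfaip3 near or above the T cell classes. Dennd4a was also high in the 8 and 15 NK cells, at 2258 and 960.1 CPM (36 and 35 UMIs, intervals 1582 to 3127 and 669 to 1335).

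Hif1a was highest in CD4 T cells, at 604 and 721 CPM, and this class stood clear of CD8 T cells at 356 and 502 CPM. Regulatory T cells, 17 and 18 of the CD4 T barcodes, held 547 and 855 CPM. Stromal classes followed, with 365 and 187 CPM in endothelial cells, 197 and 172 CPM in mural cells and 175 and 163 CPM in fibroblasts. Macrophages held 90.0 and 73.8 CPM and panel-negative barcodes 58.1 and 48.3 CPM. CD8 T, other T, endothelial, mural and fibroblast values formed a chain of overlapping neighbors.

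Each class was tested against the mean of the other classes with edgeR, with the reaction as a block. Over the 11 contrasts 26.9% of all gene tests were called at an adjusted p under 0.05, and 38 of 55 tests of Dennd4a, Nr4a1, Nr4a2, Tnfaip3 and Hif1a were. The contrasts of a gene share the same classes, so its calls are not independent of each other. In CD8 T cells, where 20.9% of all genes were called, all 5 rose: Dennd4a by 3.43 ± 0.17 log2 units (SE, edgeR adjusted p = 6.5e-14), Nr4a2 by 2.74 ± 0.22, Tnfaip3 by 2.24 ± 0.18, Hif1a by 1.45 ± 0.21 and Nr4a1 by 0.72 ± 0.19 (adjusted p = 0.0081). Since Nr4a3 was at 0 in endothelial cells, it was fitted over the other 10 classes, in which 27.5% of all tests were called. It rose in CD8 T cells by 2.40 ± 0.20 (adjusted p = 3.5e-09) and was called in 9 of 10 classes. The Nr4a1 difference in CD8 T cells did not pass the test in other settings, at 0.15 (edgeR adjusted p = 0.77) among barcodes of 1000 to 3000 UMIs and 0.48 (0.12) under the limit of 2500 genes per barcode.

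CD4 T cells, where 12.4% of all genes were called, were higher in all 6 genes, from 1.20 ± 0.38 for Nr4a2 (edgeR adjusted p = 0.041) to 2.33 ± 0.25 for Dennd4a. The Nr4a2 call in CD4 T cells was lost without the low-count filter (0.86, adjusted p = 0.21), without the endothelial class (0.90, 0.14), under 2500 genes (0.98, 0.070) and at 1000 to 3000 UMIs (0.93, 0.059). Other T cells (17.0% of all genes called) were higher in 5, from 1.15 for Hif1a to 2.75 for Dennd4a, and their Nr4a1 difference was 0.30 ± 0.22 (adjusted p = 0.43). Hif1a in other T cells was 0.57 (0.15) at 1000 to 3000 UMIs. Dendritic cells (16.0% of all genes called) were higher in Dennd4a (1.94 ± 0.22), Nr4a2 (2.17 ± 0.25) and Nr4a3 (2.47 ± 0.22), and not in Nr4a1 (0.18), Tnfaip3 (0.18) or Hif1a (-0.57, adjusted p = 0.28). With the first marker gate tried, the dendritic values of Dennd4a and Nr4a2 turned to -2.20 and -1.26.

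Macrophages split the 6 genes evenly, in a contrast that called 41.7% of all genes. Dennd4a (0.76 ± 0.17), Nr4a1 (0.56 ± 0.13) and Tnfaip3 (0.91 ± 0.15) were higher, whereas Nr4a2 (-0.70 ± 0.21), Nr4a3 (-1.06 ± 0.17) and Hif1a (-1.11 ± 0.18) were lower, all 6 called by edgeR. Among barcodes of 1000 to 3000 UMIs the Nr4a1 and Tnfaip3 values were 0.12 (adjusted p = 0.61) and 0.36 (0.057), and without the low-count filter Nr4a2 stood at -0.24 (0.47).

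In fibroblasts 52.4% of all genes and 4 of 6 members were called, in mural cells 30.5% and 5 of 6, and in endothelial cells 23.8% and 4 of 5. Fibroblasts were lower in Dennd4a (-2.07), Nr4a2 (-2.38), Nr4a3 (-2.51) and Tnfaip3 (-0.58), and mural cells were lower in the same 4, with Nr4a1 higher at 0.53 ± 0.18 (edgeR adjusted p = 0.027), a call lost without the reaction block (0.53, 0.061). Endothelial cells were lower in Dennd4a (-1.90), Nr4a1 (-1.72), Nr4a2 (with only 3 and 2 UMIs) and Tnfaip3 (-1.47). The endothelial and mural values rest on few UMIs: without reaction 1, endothelial Nr4a1 was -1.02 and mural Nr4a2 -0.38, and without reaction 2 they were -2.86 and -1.73. Hif1a was not called in fibroblasts (0.28 ± 0.17), mural cells (-0.06) or endothelial cells (0.47 ± 0.27), and its fibroblast value turned to -0.53 among barcodes of 1000 to 3000 UMIs. Arg1 myeloid cells (10.9% of all genes called) were lower in Hif1a (-1.35) and Nr4a3 (-1.28) only, and monocytes (9.27%) passed the test in none. Panel-negative barcodes were lower in all 6, in a contrast that called 60.9% of all genes, from -0.95 for Nr4a2 to -4.29 ± 0.21 for Tnfaip3, and the Nr4a2 value was -0.45 (adjusted p = 0.081) under the limit of 2500 genes.

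Nearly all MC38 T cells carried the CPI hashtag, so class and treatment overlap in these contrasts. Of all T cells, 239 and 257 barcodes were CPI, 9 and 13 isotype, 0 and 6 CPI + ABT-317 and 0 and 0 isotype + ABT-317. The CPI hashtag was also the weakest, with 54.3 and 36.6 counts at the center of its positive barcodes against 145 to 462 for the other 3, and 94.4% and 90.4% of CPI barcodes lay under 2500 genes against 15.2% to 56.2%. The part of this in the share of T cells was not tested. Within CPI barcodes alone, CD8 T cells held 1539 and 1969 CPM of Dennd4a against 323 and 281 CPM in CPI macrophages. For Nr4a2 the CPI values were 736 and 602 CPM against 148 and 219 CPM, and for Nr4a3 484 and 498 CPM against 106 and 104 CPM. The CPI classes did not overlap in these 3 genes, and the share of all genes without overlap was not counted. Tnfaip3 came closer, with 668 and 839 CPM in CPI CD8 T cells and 708 and 576 CPM in CPI macrophages, which overlapped. With 0 and 6 CPI + ABT-317 T cells, a comparison of CPI with CPI + ABT-317 within T cells was not possible by these classes. The study does report that comparison for CD8 T cells of MC38 tumors. It counted more MC38 T cells than were classed here and kept only cells under 2500 genes. Its cells, and perhaps its treatment assignment, thus differ from those used here. Here the CPI hashtag cutoff was 38 and 27 counts, against 17.7 and 10.1 counts at the center of its negative barcodes. The reason for the difference from the study was not tested.

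The genes around the members were described by lists. In MC38 CD8 T cells, where 20.9% of all genes were called, 8 of 9 tested calcium and NFAT activation genes were higher and 0 lower. Of the 9 tested, 4 had no UMIs in some class, so their differences have no firm size. Among the higher genes outside those 4 were Cd69, an early activation antigen (4.18), and Bhlhe40, a transcription factor (1.92). Of 20 tested genes of NF-kB feedback 7 were higher and 0 lower, led by Nfkbid (3.23), Tnf (2.59) and Traf1 (2.33), and their median was 0.52 against 0.07 for all genes. The DENND4 list, with relatives of Dennd4a and RAB10, had 2 of 4 genes higher, Dennd4c (2.16) and Dennd1b (1.03). Hypoxia target genes did not follow Hif1a: 1 of 12 was higher (Mxi1, 0.67), 2 were lower (Ndrg1, -1.56, and Aldoa, -0.68), and 0 of 3 tested HIF regulators passed the test. In macrophages, where Hif1a was lower and 41.7% of all genes were called, 8 of 12 hypoxia targets were higher and 0 lower, led by Vegfa (2.61), a growth factor for vessels, and Slc2a1 (1.31), a glucose transporter. Macrophages were also higher in 10 of 20 NF-kB genes and lower in 3, and Tnf was their leading gene (3.68).

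A list of immediate early and dissociation genes outside the NR4A family, heat shock genes among them, holds genes that tissue digestion can raise. It did not rise as a group in CD8 T cells against the other classes, where 20.9% of all genes were called. All classes came from the same digested tumors, so a rise that they share cannot show here. The part of digestion in the NR4A values was not tested. Of 17 genes 5 were higher and 5 lower, with Hspa1b at 1.25, Zfp36 at -1.29 and Ier3 at -1.51, and their median was 0.05. In macrophages, where 41.7% of all genes were called, 11 of 17 were higher and 2 lower, led by Atf3 (2.66).

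In TDLN the members did not share 1 leading class. Dennd4a was highest in B cells, at 1823 and 1460.3 CPM (1261 UMIs in reaction 1), against 853 and 708 CPM in cytotoxic CD8 T cells and 486 and 426 CPM in the other CD8 T cells. CD4 T cells held 495 and 356 CPM and other T cells 568 and 406 CPM of Dennd4a. B cells stood clear of all T cell classes, cytotoxic CD8 T cells stood clear of the remaining 3, and those 3 overlapped. Nr4a1 was also highest in B cells, at 674 and 827 CPM, with 206 and 313 CPM in CD4 T cells, 154 and 172 CPM in CD8 T cells and 79.2 and 139 CPM in cytotoxic CD8 T cells.

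**Figure D2:**
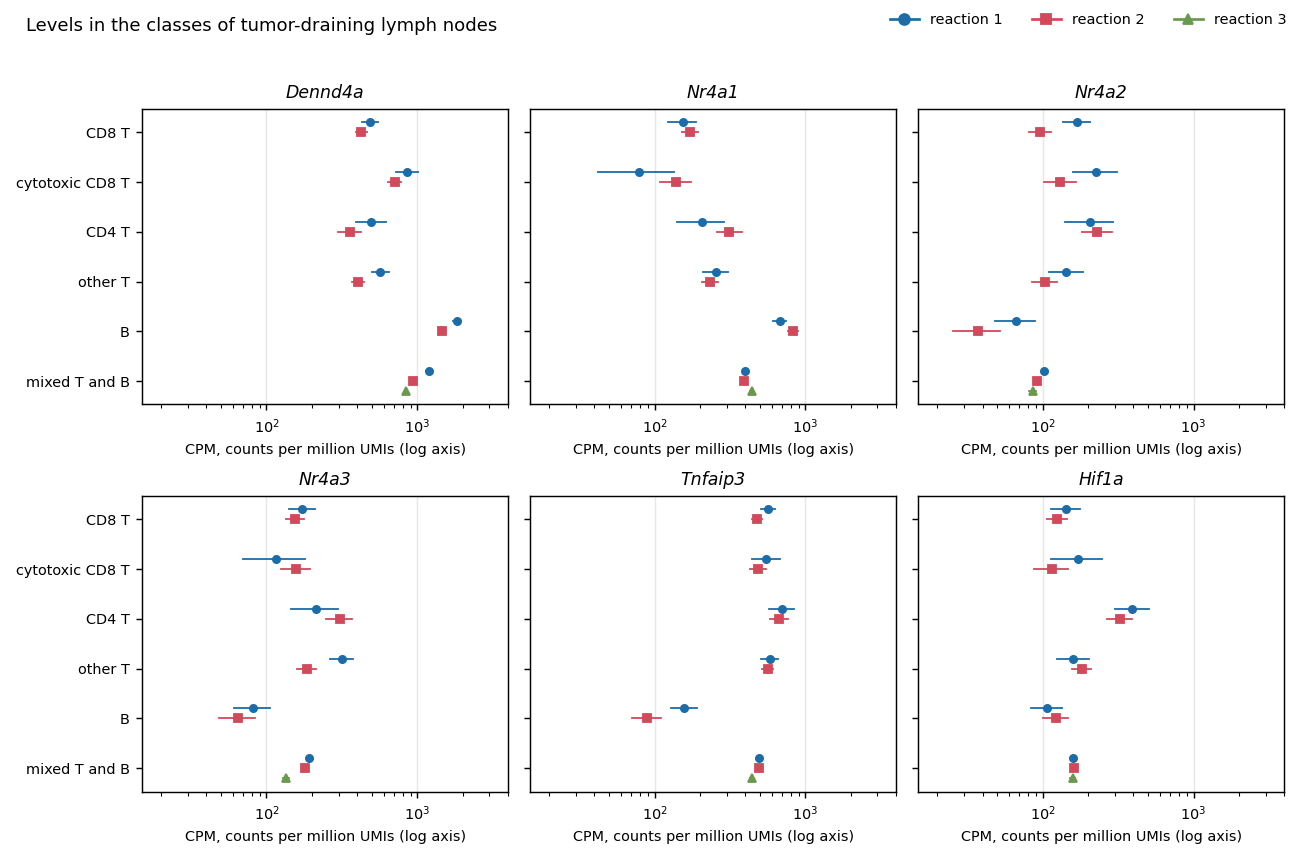
Levels of the 6 genes in 5 classes of TDLN and in barcodes with both T and B markers, in CPM on a log axis. Circles show reaction 1, squares reaction 2 and triangles reaction 3, which appears only for the barcodes with both markers. Lines show exact 95% Poisson intervals. Dennd4a and Nr4a1 were highest in B cells, and Nr4a2, Nr4a3, Tnfaip3 and Hif1a were lowest there.

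The other 4 genes were lowest in B cells and highest by mean in CD4 T cells. Tnfaip3 held 695 and 669 CPM in CD4 T cells, 579.6 and 561 CPM in other T cells, 563 and 478 CPM in CD8 T cells and 158 and 89.1 CPM in B cells. Hif1a held 392 and 325 CPM in CD4 T cells, clear of the other T cell classes, which lay between 115 and 182 CPM, and 107 and 122 CPM in B cells. Nr4a3 held 212 and 305 CPM in CD4 T cells, 314 and 185 CPM in other T cells and 81.0 and 64.3 CPM in B cells. Nr4a2 held 206 and 231 CPM in CD4 T cells and 66.5 and 37.2 CPM in B cells, and its 4 T cell classes formed a chain of overlaps. Barcodes with both T and B markers had intermediate values, such as 1198, 934 and 837 CPM of Dennd4a in the 3 reactions.

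By edgeR, 12.8% of all gene tests over the 5 TDLN contrasts were called and 21 of 30 tests of the members were. The contrasts of a gene share the same classes, so these tests are not independent. In B cells, where 38.1% of all genes were called, all 6 passed: Dennd4a rose by 1.62 ± 0.07 (adjusted p = 6.6e-25) and Nr4a1 by 1.96 ± 0.10, and Tnfaip3 (-2.29 ± 0.12), Nr4a2 (-1.68 ± 0.18), Nr4a3 (-1.52 ± 0.18) and Hif1a (-0.69 ± 0.14) were lower. CD4 T cells (6.25% of all genes called) were higher in Hif1a (1.25 ± 0.15), Nr4a2 (1.02), Nr4a3 (0.85) and Tnfaip3 (0.80) and lower in Dennd4a (-0.91 ± 0.11). Cytotoxic CD8 T cells (5.42%) were higher in Dennd4a (0.39), Nr4a2 (0.59, adjusted p = 0.047, and 0.15 by DESeq2) and Tnfaip3 (0.45) and lower in Nr4a1 (-1.27). The mean that each T cell class was set against includes B cells, where Tnfaip3 was low and Dennd4a high. Among T cell classes alone, cytotoxic CD8 T cells had the lowest mean of Tnfaip3, at 517 CPM. CD8 T cells (8.57%) were lower in Dennd4a (-0.55) and Nr4a1 (-0.68) and higher in Tnfaip3 (0.46), and other T cells (5.9%) were lower in Dennd4a (-0.55) and higher in Nr4a3 (0.67) and Tnfaip3 (0.58). Without the reaction block 10 of the 30 tests were called, 6 of them in B cells, and the remaining ones were Dennd4a, Hif1a and Tnfaip3 in CD4 T cells and Nr4a1 in cytotoxic CD8 T cells. The share of all genes called without the block is not given here, so this drop cannot be read as particular to the members. All TDLN class fits rest on reactions 1 and 2.

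In TDLN B cells, where 38.1% of all genes were called, the lists moved both ways. Of 12 calcium and NFAT genes 5 were higher and 4 lower, with Egr3 (3.15) and Irf4 (2.12) up and Tox, a factor of exhausted T cells, at -3.13. Of 21 NF-kB genes 8 were higher and 5 lower, with Rel (2.27) and Bcl3 (1.83) up and Tnf at -1.76. The DENND4 list had 3 of 5 genes higher, among them Dennd4b (1.46), and 1 lower. Hypoxia targets had 6 of 10 lower, among them P4ha1 (-1.64), and 1 higher, and 1 of 5 HIF regulators was higher (Egln2, 1.19). Of 14 immediate early and dissociation genes 4 were higher and 5 lower.

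T cells of the 2 tissues were compared class by class. Tissue, tumor line, dissociation (mechanical for TDLN, warm collagenase for tumors), the CD45 sort, the software version and the gene annotation differ together, so their parts cannot be told apart, and CPI barcodes made up most of the MC38 T cells while TDLN pooled all treatments. Tumor age may differ as well, since the study gives the start of the MC38 day count in different ways. Over all T cells, Dennd4a held 1208 and 1597 CPM in MC38 tumors and 559, 457 and 432 CPM in the 3 TDLN reactions. Nr4a2 held 554 and 623 CPM against 172, 118 and 123 CPM. Nr4a3 held 439.9 and 439 CPM against 216, 180.1 and 209.8 CPM, and Hif1a held 372 and 516 CPM against 181, 162 and 86.4 CPM. The tissues did not overlap in these 4 genes. The share of all genes without overlap between the tissues was not counted, so a lack of overlap does not set the members apart.

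Nr4a1 and Tnfaip3 stood closer. Nr4a1 held 269.8 and 334 CPM in MC38 tumors and 182, 201 and 222 CPM in TDLN, without overlap. Tnfaip3 held 625 and 823 CPM against 582, 526 and 506 CPM, also without overlap, and its difference did not pass the test.

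**Figure D3:**
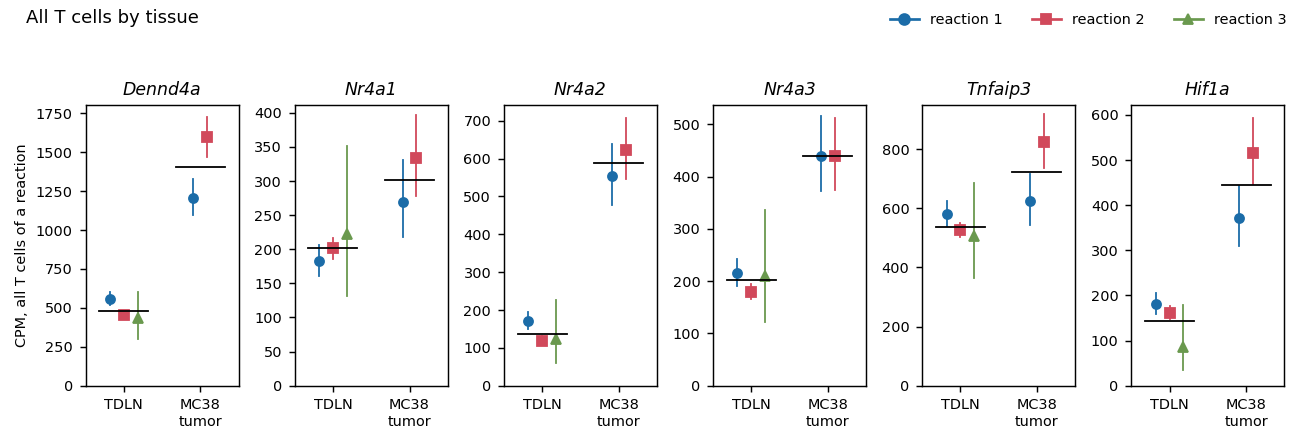
Levels of the 6 genes in all T cells of each reaction, in CPM, for TDLN and MC38 tumors, with exact 95% Poisson intervals as lines and the group mean as a bar. The MC38 values lay above the TDLN values in each gene, by the least in Tnfaip3 (625 and 823 against 582, 526 and 506 CPM).

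Of all genes tested over all T cells 30.3% were called, and 5 of the 6 members were, all higher in MC38 tumors. Nr4a2 was higher by 2.02 ± 0.21 (edgeR adjusted p = 2.5e-07), Dennd4a by 1.47 ± 0.18 (3.3e-06), Hif1a by 1.42 ± 0.22, Nr4a3 by 1.11 ± 0.19 and Nr4a1 by 0.58 ± 0.20 (0.034), and Tnfaip3 stood at 0.37 ± 0.18 (0.13). The Nr4a1 call was lost without the second MC38 reaction (0.41, adjusted p = 0.32), without the first TDLN reaction (0.49, 0.15) and without the second (0.60, 0.12), and the value turned to -0.20 with the first gate.

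In CD8 T cells 5 of 6 members were higher in MC38 tumors, where 20.2% of all genes were called: Nr4a2 by 2.28 ± 0.25, Dennd4a and Hif1a by 1.64 each, Nr4a3 by 1.53 and Nr4a1 by 0.87 ± 0.23 (edgeR adjusted p = 0.015), with Tnfaip3 at 0.44 (0.14). The Nr4a1 value was 0.66 (adjusted p = 0.17) without the first TDLN reaction, 0.71 (0.16) without the second MC38 reaction and -0.28 with the first gate. In CD4 T cells 2 members were higher, Dennd4a (1.18 ± 0.28) and Hif1a (0.83 ± 0.29, 0.041), where 20.1% of all genes were called. Dennd4a fell to 0.84 (0.059) without the second TDLN reaction and to 0.96 (0.095) without the second MC38 reaction, and Hif1a was not called without either of those, without the first TDLN reaction or without the first MC38 reaction. In other T cells 3 were higher, Nr4a2 (2.22 ± 0.29), Dennd4a (1.24) and Hif1a (1.06), where 19.6% of all genes were called, and Hif1a was not called without the first TDLN reaction (0.86, 0.11) or the second MC38 reaction (0.80, 0.086).

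Depth was lower in MC38 CD8 T cells (medians of 1205 and 1124.5 UMIs per barcode) than in TDLN CD8 T cells (3512 and 3173). Among T cells of 1000 to 2000 UMIs, Dennd4a stood at 1221 and 1614 CPM in MC38 tumors against 384 and 451 CPM in the first 2 TDLN reactions, and Nr4a2 at 442 and 630.3 CPM against 116 and 137 CPM. Nr4a3 stood there at 471 and 459 CPM against 214 and 221 CPM, and Hif1a at 372 and 542 CPM against 268 and 190.5 CPM. These 4 genes did not overlap between the tissues at this depth. Nr4a1, at 263 and 354 CPM against 295 and 238 CPM, and Tnfaip3, at 600.4 and 818 CPM against 652 and 504 CPM, did. The share of all genes without overlap was not counted at this depth either. MC38 all T sums held 592 and 381 CPM of the C1q genes, and the part of such RNA in these values was not tested.

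**Figure D4:**
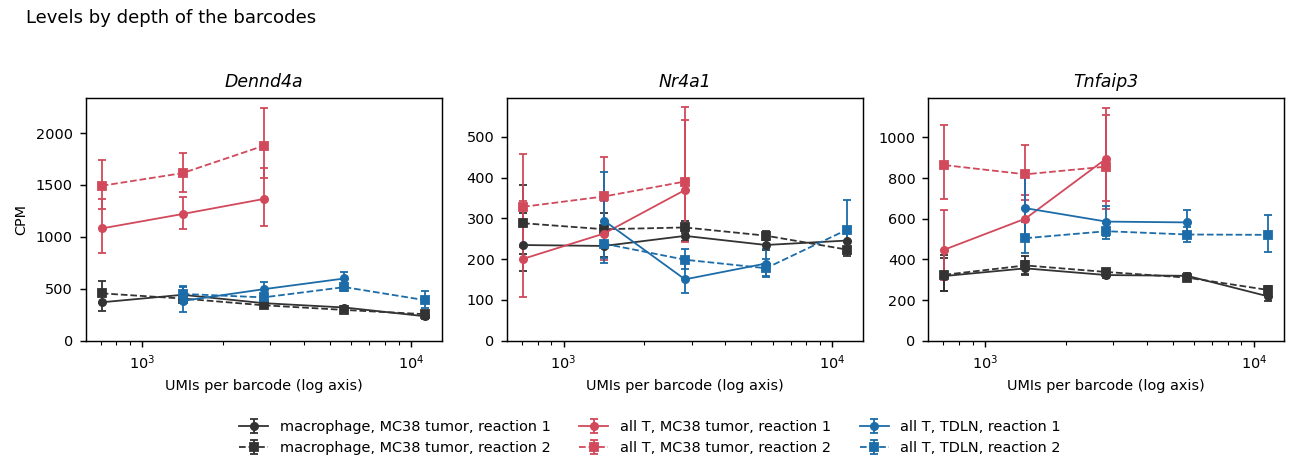
Levels of Dennd4a, Nr4a1 and Tnfaip3 in CPM by UMIs per barcode (log axis) in MC38 macrophages, MC38 T cells and TDLN T cells, for reaction 1 (solid) and reaction 2 (dashed), with exact 95% Poisson intervals. Dennd4a in MC38 T cells was above TDLN T cells in every shared depth bin, and in macrophages it fell from 443 and 406 CPM at 1000 to 2000 UMIs to 235 and 255 CPM at 8000 to 16000 UMIs.

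Lists measured in the same T cells moved too, in a contrast that called 30.3% of all genes. Hypoxia targets were higher in MC38 T cells in 8 of 10 tested genes and lower in 1, with a median of 1.44 against -0.02 for all genes, led by Bnip3 (3.32) and Ero1l (2.10). Of the HIF regulators Egln1 was higher (1.85) and Arnt lower (-1.12). Of 9 calcium and NFAT genes 6 were higher and 1 lower, led by Bhlhe40 (3.34), Rgs1 (1.88) and Egr1 (1.67). Of 20 NF-kB genes 8 were higher and 1 lower, led by Tnf (3.98) and Tnip3 (3.77), and of the DENND4 list Dennd5a (2.01) and Dennd4c (1.57) were higher. Immediate early and dissociation genes were higher in 10 of 17 and lower in 2, with the heat shock genes Hspa1a (6.58) and Hspa1b (5.62) leading, and their part in the NR4A differences was not tested.

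Within MC38 CD8 T cells, barcodes with at least 2 of 5 checkpoint receptor genes (8 and 19 barcodes) were set against those with none (71 and 73). Nr4a3 held 839.6 and 786 CPM in checkpoint-high cells and 422 and 163 CPM in checkpoint-low cells, and Nr4a2 held 1329 and 1014 CPM against 467 and 592 CPM. Neither gene overlapped between the groups, and the share of all genes without overlap was not counted, so this does not set the 2 genes apart. By edgeR the differences were 1.52 ± 0.40 for Nr4a3 (adjusted p = 0.21) and 0.95 ± 0.27 for Nr4a2 (0.25), and 0 of the 6 members were called. Dennd4a differed by 0.11 ± 0.20 (0.97). Across all genes 0.195% were called, 2 genes, and 81 of 1027 had an unadjusted p under 0.05. Detecting more checkpoint genes selects deeper barcodes by construction, and these sums hold few UMIs, with 12 and 31 of Nr4a3 in the checkpoint-high cells.

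Treatments could be compared in 2 MC38 classes, macrophages and panel-negative barcodes. They were read from the hashtags, of which the CPI hashtag was the weakest. Its positive barcodes centered at 54.3 and 36.6 counts, against cutoffs of 38 and 27 counts. The part of wrongly read treatments in the differences below was not tested. In macrophages 4 members were higher with CPI than with isotype. Tnfaip3 stood at 297 and 289 CPM with isotype, 708 and 576 CPM with CPI, 305 and 307 CPM with CPI + ABT-317 and 259 and 238 CPM with isotype + ABT-317. Hif1a stood at 82.7 and 68.9 CPM, 244 and 230.2 CPM, 142 and 103 CPM, and 93.5 and 75.4 CPM in the same order. In both genes the CPI values lay above those of all other groups.

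Nr4a2 and Nr4a3 had the same form in macrophages. Nr4a2 stood at 80.9 and 70.8 CPM with isotype, 148 and 219 CPM with CPI, 52.6 and 72.9 CPM with CPI + ABT-317 and 63.4 and 52.4 CPM with isotype + ABT-317. Nr4a3 stood at 50.4 and 44.1, 106 and 104, 40.0 and 54.3, and 53.4 and 27.2 CPM. Nr4a1 was 245 and 262 CPM with isotype, 285 and 317 CPM with CPI, 177 and 154 CPM with CPI + ABT-317 and 214 and 219 CPM with isotype + ABT-317. Dennd4a overlapped between all groups, from 243 to 404 CPM.

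**Figure D5:**
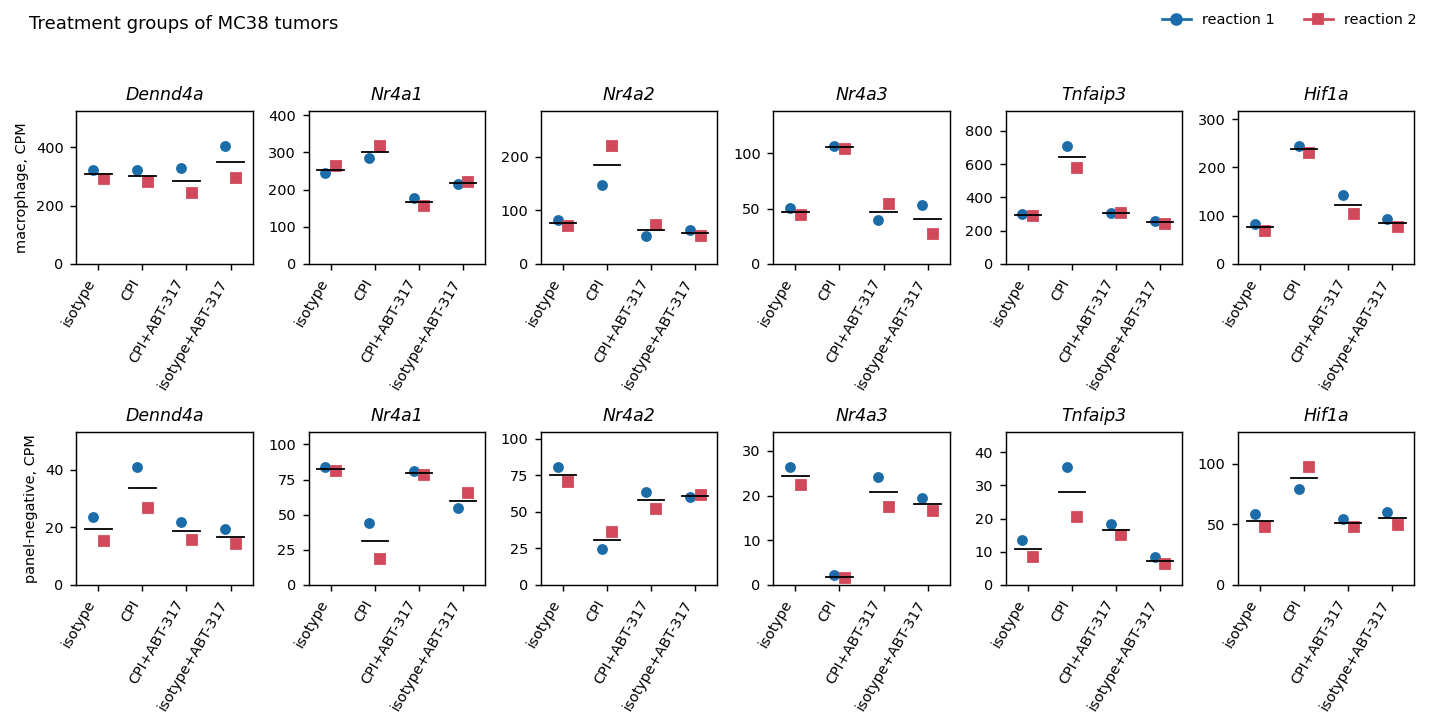
Levels of the 6 genes in CPM in macrophages (top) and panel-negative barcodes (bottom) of MC38 tumors by treatment, for reaction 1 (circles) and reaction 2 (squares), with the mean as a bar and a separate axis from 0 in each panel. In macrophages CPI was highest in Nr4a1, Nr4a2, Nr4a3, Tnfaip3 and Hif1a, although the Nr4a1 difference from isotype was not called. In panel-negative barcodes Nr4a3 fell to 2.15 and 1.56 CPM with CPI.

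In the comparison of CPI with isotype in macrophages, 23.4% of all genes and 4 of 6 members were called, all 4 higher. The edgeR differences were 1.66 ± 0.16 for Hif1a (adjusted p = 5.7e-13), 1.29 ± 0.19 for Nr4a2, 1.15 ± 0.10 for Tnfaip3 and 1.18 ± 0.24 for Nr4a3, with 0.26 ± 0.13 for Nr4a1 (0.15) and -0.01 ± 0.13 for Dennd4a (0.96). Nr4a3 was not called with the stricter gate (0.77, 0.29). In CPI + ABT-317 against CPI, which shares the CPI samples, 16.5% of all genes and 5 of 6 members were called, all 5 lower: Nr4a2 by -1.50 ± 0.22, Nr4a3 by -1.11, Tnfaip3 by -1.07, Hif1a by -0.98 and Nr4a1 by -0.89 ± 0.15, with Dennd4a at -0.10 (0.71). In isotype + ABT-317 against isotype 1.57% of all genes and 0 of 6 members were called by edgeR, with differences from -0.42 for Nr4a2 to 0.14 for Dennd4a. DESeq2 also called 0 of them, and 888 of 8346 genes had an unadjusted p under 0.05.

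The effect of ABT-317 with CPI minus its effect with isotype was tested in the same fit, in which 12.0% of all genes were called. It passed for 4 members in macrophages: Hif1a (-1.11 ± 0.22, edgeR adjusted p = 0.00012), Nr4a2 (-1.08 ± 0.27), Tnfaip3 (-0.80 ± 0.15) and Nr4a1 (-0.63 ± 0.18). Nr4a3 stood at -0.84 ± 0.33 (0.09) and Dennd4a at -0.25 (0.41). These calls depended on the gate and depth. With the stricter gate 0 of the 4 held, and among barcodes of 1000 to 3000 UMIs Hif1a alone did (-1.65, edgeR adjusted p = 0.008). With the first gate, and with treatment taken from the leading hashtag, Nr4a2 and Hif1a held and Nr4a1 and Tnfaip3 did not. Nr4a1 also lost the call without the reaction block (-0.62, 0.13), without the low-count filter (-0.45, 0.16) and under 2500 genes (-0.43, 0.11).

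CPI macrophages also differed from the rest in depth and marker levels. They numbered 148 and 126 barcodes against 213 to 3755 in the other groups, with medians of 1617 and 1962 UMIs against 3131.5 to 4412. Their T cell marker panel summed to 13.7 and 21.6 CPM, against 0 to 5.56 CPM elsewhere, and their C1q genes to 7381 and 8410 CPM, against 11541 to 14904 CPM. The neutrophil panel summed to 89.3 and 75.5 CPM in them, against 23.1 to 40.9 CPM elsewhere, and the monocyte panel to 168 and 191 CPM, against 60.8 to 153 CPM. The part of these in the CPI differences was not tested. Among macrophages of 1000 to 3000 UMIs the 4 CPI calls held, with Hif1a at 1.61 and Nr4a3 at 0.96. For CPI + ABT-317 against CPI, Nr4a2 (-1.76) and Hif1a (-1.25) were called there, while Tnfaip3 stood at -0.54 (edgeR adjusted p = 0.05), Nr4a1 at -0.68 (0.064) and Nr4a3 at -0.81 (0.31).

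The lists placed these genes among others that moved in CPI macrophages, where 23.4% of all genes were called against isotype. Of 22 NF-kB genes 9 were higher with CPI and 1 lower, among them Nfkb2 (1.41), Icam1 (1.26), an adhesion molecule, and Tnip3 (-1.36). Of 8 calcium and NFAT genes 4 were higher and 2 lower, led by Egr2 (2.62) and Egr3 (2.49). Of 17 immediate early and dissociation genes 10 were higher and 0 lower, led by Fosb (1.75) and Ier3 (1.49). Hypoxia targets went the other way from Hif1a, with 7 of 13 lower and 2 higher, led by Ankrd37 (-2.26) and the glycolytic genes Ldha (-1.21) and Aldoa (-1.11). HIF regulators had 0 of 5 called, with Arnt at -0.69 (edgeR adjusted p = 0.26) and Egln1 at -0.26 (0.51), and of the DENND4 list Dennd4c was higher (1.05).

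With CPI + ABT-317 against CPI, 16.5% of all genes were called in macrophages. Of 17 immediate early and dissociation genes 14 were lower there and 0 higher, led by Fosb (-1.68) and Jun (-1.37). NF-kB genes had 5 lower, among them Nfkb2 (-0.97) and Nfkb1 (-0.79), and 1 higher, Tnip3 (1.07). Calcium and NFAT genes had 3 of 8 lower, Bhlhe40 (-1.72), Egr2 (-1.71) and Egr1 (-1.51), and 2 higher. Hypoxia targets had 7 of 13 higher and 0 lower, led by Ankrd37 (1.64), Aldoa (1.10) and Bnip3 (1.04), and Dennd4c was lower (-1.18).

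In panel-negative barcodes the CPI values rest on 48 and 23 barcodes. Nr4a1 held 83.7 and 81.0 CPM with isotype, 44.0 and 18.8 CPM with CPI, 80.7 and 78.3 CPM with CPI + ABT-317 and 54.8 and 65.2 CPM with isotype + ABT-317. Nr4a2 held 80.3 and 70.1, 24.7 and 36.0, 63.3 and 52.2, and 59.7 and 61.1 CPM. Both NR4A genes were lowest with CPI, the reverse of the order of Nr4a2 in macrophages. Nr4a3 held 2 and 1 UMIs with CPI against 1398 and 1339 with isotype, a ratio of CPM of 0.0816 (interval 0.00987 to 0.295) in reaction 1 and 0.0702 (0.00178 to 0.392) in reaction 2.

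Of all genes 14.9% were called between CPI and isotype in panel-negative barcodes, and all 6 members were. By edgeR Tnfaip3 (1.23 ± 0.27), Dennd4a (0.65 ± 0.21, adjusted p = 0.033) and Hif1a (0.53 ± 0.14) were higher, and Nr4a1 (-1.44 ± 0.23), Nr4a2 (-1.53 ± 0.22) and Nr4a3 were lower. In CPI + ABT-317 against CPI 9.09% of all genes and 5 members were called, Nr4a1 (1.40), Nr4a2 (1.15) and Nr4a3 higher and Dennd4a (-0.68) and Hif1a (-0.58) lower. In isotype + ABT-317 against isotype 20.6% of all genes and 4 members were called, all lower: Tnfaip3 (-0.51), Nr4a1 (-0.40), Nr4a3 (-0.37) and Nr4a2 (-0.25). The difference between the effects of ABT-317 with and without CPI was called for 8.46% of all genes and for 4 members, Nr4a1 (1.80), Nr4a2 (1.41), Nr4a3 (4.00) and Hif1a (-0.69). Without reaction 1 the Nr4a2 values were -0.93 for CPI against isotype and 0.51 for CPI + ABT-317 against CPI, and the Nr4a1 values were -2.05 and 2.00. With treatment taken from the leading hashtag the CPI differences of Dennd4a and Hif1a were 0.23 (0.49) and 0.32 (0.083). The fibroblast panel summed to 1070 and 1107 CPM in CPI and to 1808 and 1796 CPM in isotype panel-negative barcodes. The Arg1 myeloid panel summed to 607 and 554 CPM in CPI, 176 and 192 CPM in isotype, 172 and 186 CPM in isotype + ABT-317 and 280 and 401 CPM in CPI + ABT-317. The part of these in the values was not tested. With CPI against isotype, where 14.9% of all genes were called, 11 of 17 immediate early and dissociation genes were higher there and 1 lower. Hypoxia targets had 11 of 16 lower and 1 higher.

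Genes with the most similar pattern were named by the correlation of log2(CPM + 1) over the 11 MC38 class means, among 6653 genes, as a description over classes that share libraries. Dennd4a was most like Zfp36l2 (r = 0.974), Cyfip2 (0.966) and Cd69 (0.965). Nr4a1 was most like B9d2 (0.915), Tob2 (0.914) and Trpv2 (0.904), and Nr4a2 most like Mta3 (0.959), Ccl5 (0.938) and Stk4 (0.937). Nr4a3 was most like Ankrd44 (0.973), Paxbp1 (0.960) and Vps54 (0.960). Tnfaip3 was most like Bach2 (0.969), Diaph1 (0.961) and Mapkapk3 (0.943), and Hif1a most like Ube2h (0.964), Stag2 (0.954) and Mkln1 (0.942). Between members r ran from 0.295 for Nr4a3 and Hif1a to 0.914 for Nr4a2 and Nr4a3.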

How the data were processed

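The authors deposited UMI counts per gene and barcode for 3 TDLN and 2 MC38 reactions made with a 5′ kit. The file headers name Cell Ranger 7.1.0 (TDLN) and 8.0.1 (MC38), and the submitters' processing notes list Cell Ranger 3.1.0 and GRCm38/mm10. The TDLN annotation holds 32285 genes and the MC38 annotation 33696. Whether intronic reads were counted is not given in the sources used here. Barcodes with at least 200 genes and under 10% mitochondrial UMIs were kept, with no doublet caller. MC38 barcodes with several hashtags were left out, as were TDLN barcodes with over 5% of their T and B marker UMIs from the other lineage.

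In MC38 tumors each marker panel's UMIs per 10000 were divided by a reference density. A lineage class there needed at least 2 markers, a scaled density of at least 0.3, and no other lineage above 0.25 times its own. Monocytes and Arg1 myeloid cells were instead set by the macrophage check genes, low C1q RNA and the number of monocyte and Arg1 markers. Panel-negative barcodes had every scaled density under 0.1. A TDLN class needed at least 10 T and B marker UMIs, with at most 5% from the other lineage. These gates replaced the planned one (at least 2 markers and at most 1 of any other lineage) after collagen and C1q RNA was seen in MC38 barcodes of other lineages. The planned gate is kept as an alternative. The new gates, the range of 1000 to 3000 UMIs and the fit without endothelial cells were chosen after seeing the data. The members and gene lists were chosen with earlier results of these data known.

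Counts summed per class and reaction (at least 20 barcodes, or 10 per treatment) were tested with edgeR 4.0.16 (R 4.3.3, TMM, filterByExpr, quasi-likelihood F test, Benjamini-Hochberg over all genes tested in a contrast, threshold 0.05). The reaction was a block because sums with the same reaction number come from the same droplet library. Tissue contrasts had no block, since reaction numbers do not pair TDLN with tumors. DESeq2 1.42.0 was an alternative. The fits were checked on simulated data. Named genes were all members, the 3 most correlated genes for each, and from each list the 3 largest called differences, leaving out genes at 0 in a group. Counts over a list kept such genes, and medians left them out. Promoter letters come from RefSeq on GRCm38.p6 and positions from GENCODE vM21.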

Additional observations from a re-analysis of the deposited data

Results flagged for a closer look

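The change with ABT-317 differed between CPI and isotype for 8 values, by an edgeR test of the difference itself (log2 change with CPI minus log2 change with isotype). That test called 12.0% of all genes in macrophages and 8.46% in panel-negative barcodes. In macrophages the differences were -0.63 for Nr4a1, -1.08 for Nr4a2, -0.80 for Tnfaip3 and -1.11 for Hif1a. In panel-negative barcodes they were 1.80 for Nr4a1, 1.41 for Nr4a2, 4.00 for Nr4a3 and -0.69 for Hif1a. In macrophages 0 of these 4 passed the test with the stricter gate, 1 among barcodes of 1000 to 3000 UMIs (Hif1a) and 2 with the first gate (Nr4a2 and Hif1a). Without the reaction block Nr4a1 lost the call in macrophages and Nr4a1, Nr4a2 and Hif1a lost it in panel-negative barcodes. The value of Nr4a3 rests on 2 and 1 UMIs in the CPI sums. Nr4a1 and Nr4a2 thus had opposite signs in the 2 classes, and whether the classes differ from each other was not tested. CPI sums held fewer and shallower barcodes than the other treatments in macrophages, and the CPI hashtag was the weakest. The part of these in the differences was not tested.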

How the results depend on the processing

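Of 1414 values of single members recomputed under an alternative, 1138 kept their side of the threshold. The 1138 also hold untested values that moved by no more than the edgeR standard error. Another 105 lost the call, 36 gained one, 124 without a test moved further and 11 turned sign. A turned sign was counted only where the main or the alternative value was called, so the 1138 can include uncalled values that changed sign. Without the replicate block the TDLN class calls fell from 21 to 10, those of isotype + ABT-317 against isotype from 4 to 0 and those of the difference between ABT-317 effects from 8 to 4. With the first gate the TDLN calls were 9. In macrophages that gate gave 5 calls for isotype + ABT-317 against isotype (0 in the main analysis) and 2 for the difference between effects (4 in the main analysis). The stricter gate gave 3 calls for CPI + ABT-317 against CPI (main 5) and 0 for the difference between effects. Barcodes of 1000 to 3000 UMIs gave 2 and 1. DESeq2 gave 2 calls for isotype + ABT-317 against isotype (main 4), and the limit of 2500 genes gave 2 in macrophages (main 0). Calls over the MC38 classes (38), tissues (15), CPI against isotype (10) and checkpoint groups (0) stayed within 1.5 times under every alternative that gave a value. The shares of all genes called under these alternatives are not given here, so no change in calls can be read as particular to the members. The cause was not tested for any of these changes.

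Among values called in the main or the alternative setting, signs turned mostly with the first gate. In MC38 tumors they turned in dendritic cells for Dennd4a (-2.20), Nr4a1 (-2.11), Nr4a2 (-1.26) and Tnfaip3 (-3.45) and in fibroblasts for Hif1a (-1.58). In TDLN they turned for Tnfaip3 in cytotoxic CD8 T cells (-0.039) and Dennd4a in other T cells (0.020). Between tissues they turned for Nr4a1 in all T cells (-0.20) and in CD8 T cells (-0.28), and in macrophages for Dennd4a with isotype + ABT-317 against isotype (-0.53). Among barcodes of 1000 to 3000 UMIs, Hif1a turned in MC38 fibroblasts (-0.53). By mean over barcodes and among barcodes of 1000 to 3000 UMIs, Nr4a3 was highest in dendritic cells of MC38 tumors.

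The stricter gate left at least 20 barcodes in both MC38 reactions for macrophages and fibroblasts alone, so it gave no comparable class contrast and no tissue contrast. Leaving out a reaction within a tissue leaves 1 per group, a value with no test. No block was possible between tissues. With 2 MC38 and up to 3 TDLN reactions and 27 checkpoint-high barcodes, small differences were not detectable.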
